A study of Rattus norvegicus with 16 samples.

Results

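The 10 genes described here encode enzymes of glycolysis, or set its rate, in the frontal cortex of the rat: Hk1, Pfkm, Pfkp, Pfkfb3, Aldoa, Pgk1, Eno1, Eno2, Ldha and Ldhb. They were chosen by name, and where a symbol stood at several loci the locus with the highest mean over all libraries was taken. They are 10 of the 17001 gene symbols in the deposited table, and 9 of them had a mean of at least 1 FPKM (fragments divided by transcript length and by the mapped fragments of the library) and were tested among 14923 loci. Only Eno2 was below that level.

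The 16 libraries were made from frontal cortex of male Sprague-Dawley rats, an outbred laboratory stock, that were 11 weeks old when they entered the study and ate their diet for 7 weeks. Each group has 4 libraries. The chow group received standard diet without injections, and the group named HF received a diet high in fat without injections. Rats of the HF_PBS group had the fat-rich diet and 10 days of intraperitoneal injections of phosphate-buffered saline, the vehicle. Rats of the HF_5AzaD group had that diet and 10 days of injections of 5-AzaD, an inhibitor of DNA methyltransferases, in that vehicle. Libraries are named by group and by the number in their title, and values are listed in the order of those numbers, 1 to 4 for chow and HF_PBS, 5 to 8 for HF, and 3, 5, 6 and 7 for HF_5AzaD. The labels do not say that the libraries of a group came from separate animals, and all p-values therefore refer to the spread between libraries, which may be technical only. A library or sequencing batch that followed the injections cannot be told apart from them.

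Glycolysis turns glucose into pyruvate in the cytosol and yields ATP and NADH. Hexokinase traps glucose in the cell, phosphofructokinase makes the committed step, aldolase splits the sugar, phosphoglycerate kinase makes ATP, enolase makes phosphoenolpyruvate, and lactate dehydrogenase interconverts pyruvate and lactate. Several steps have isoforms that differ between brain cell types: Eno2 is the neuronal enolase, and the Ldha and Ldhb subunits form tetramers with different preferences for pyruvate and lactate. Many of these genes are known targets of hypoxia-inducible factor, whose core DNA motif is ACGTG.

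Promoter sequences are shown for 3 genes on which the results below turn, the enolase Eno1, the kinase Pfkfb3 and the lactate dehydrogenase Ldha. Each is the stretch of 180 bases just before the RefSeq start site, 5′ to 3′ in the direction of the gene, from assembly GRCr8. Capitals mark the motif ACGTG, which reads as CACGT where it lies on the other strand. They also mark the E-box, written CACGTG, which holds the first motif on both strands, so that the matches overlap. The third motif in capitals is the GC box, written GGGCGG, which reads in reverse complement as CCGCCC when on the other strand. The genes lie on the plus strand at chr5:166003181-166003360 for Eno1, chr17:71944753-71944932 for Pfkfb3 and chr1:106507912-106508091 for Ldha.
Eno1: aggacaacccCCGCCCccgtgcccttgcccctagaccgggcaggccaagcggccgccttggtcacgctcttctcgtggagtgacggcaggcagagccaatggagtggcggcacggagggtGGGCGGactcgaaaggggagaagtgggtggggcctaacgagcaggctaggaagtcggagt
Pfkfb3: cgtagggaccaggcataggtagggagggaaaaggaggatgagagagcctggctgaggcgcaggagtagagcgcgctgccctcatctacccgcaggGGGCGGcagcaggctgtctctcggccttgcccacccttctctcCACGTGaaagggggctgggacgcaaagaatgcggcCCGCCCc
Ldha: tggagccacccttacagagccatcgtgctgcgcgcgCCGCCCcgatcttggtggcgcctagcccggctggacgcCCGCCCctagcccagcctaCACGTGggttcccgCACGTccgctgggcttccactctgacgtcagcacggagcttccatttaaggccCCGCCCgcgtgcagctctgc

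The stretch of Ldha held 1 CACGTG, 1 further ACGTG and 3 GC boxes, and that of Pfkfb3 held 1 CACGTG and 2 GC boxes. The Eno1 stretch held 2 GC boxes and no ACGTG. Windows of 300 bases, 250 before the start site and 50 from it, were given for 9 of the 10 genes (13 windows in all), Pgk1 being the exception. ACGTG stood in at least 1 window of 7 of these 9 genes and in 7 of the 13 windows, against 19.3% of all 33469 windows. Eno1 was among these 7, its match beginning at base 39 from the start site, outside the printed stretch. CACGTG stood in 2 of the 13 windows against 6.42% of all, and GGGCGG in 8 of the 13 against 33.1%. The windows of the members were 50.3% to 70.7% G and C, with a median of 51.7% over all windows, and base composition bears on how often such motifs occur. A match is a description of the letters only.

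Levels per length differed widely between the members. Aldoa was highest with a mean of 664 FPKM over 15 libraries, followed by Ldhb with 541. Pfkp (211), Pfkm (194), Hk1 (167) and Pgk1 (158) came next, then Ldha (111) and Eno1 (95.8), all as mean FPKM over 16 libraries. Pfkfb3 was far lower at 11.4 and Eno2 lowest at 0.972. The ranges over libraries of neighbours in this order overlapped from Pfkp down to Eno1, as did those of Aldoa and Ldhb. All Ldhb values lay above all Pfkp values, and no library of Pfkfb3 or Eno2 reached the lowest of the gene ranked above it.

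**Figure D1:**
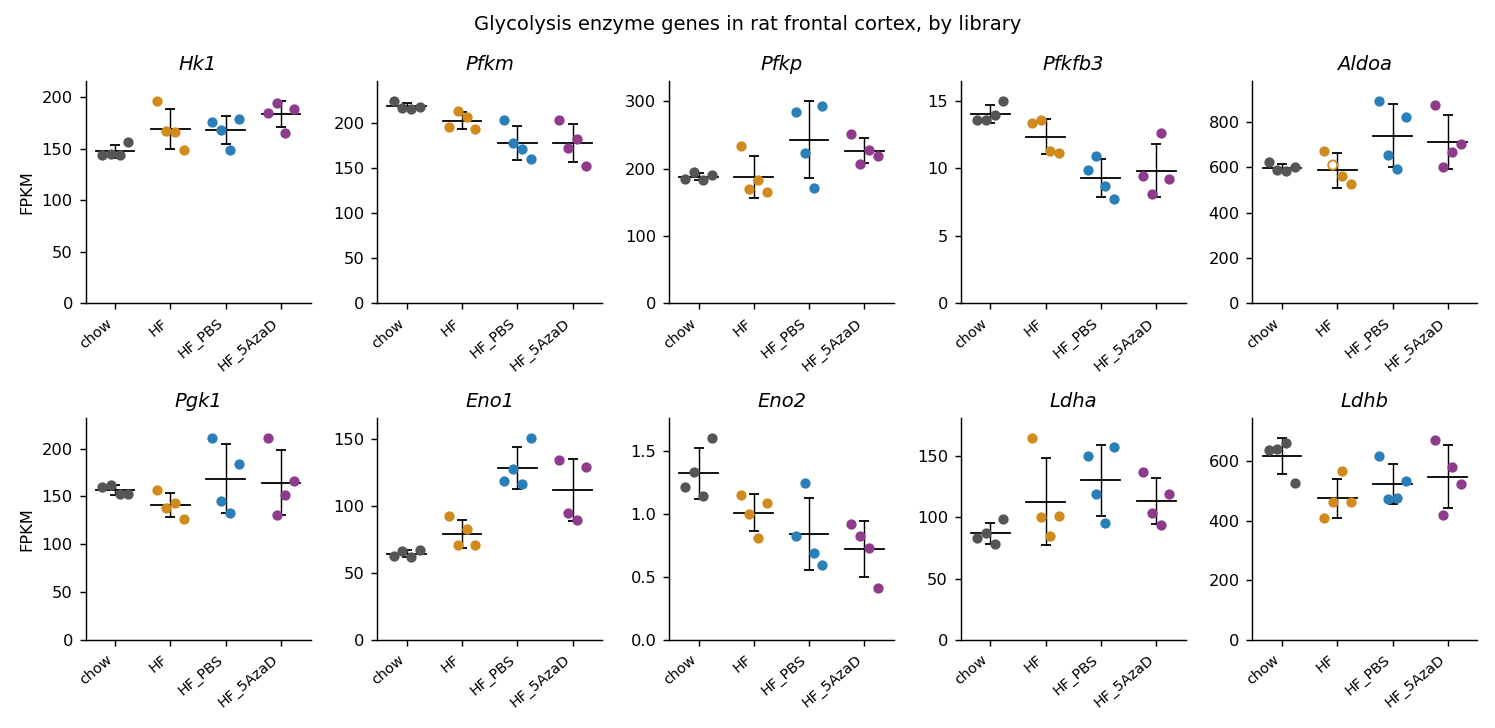
FPKM of the 10 genes (y axis, linear from 0) in each library of the 4 groups (x axis); points are libraries in order of their numbers, lines are group means and bars are SD. The hollow Aldoa point is HF 6, whose deposited status is FAIL and which is left out of the mean; the 4 HF_PBS points of Eno1 lie at 116 to 150, above all chow and HF points.

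Facts of the libraries touch several results below. Relative depth, read from the steps between low values, was 39.4% to 100% of the deepest library in chow and 30.6% to 45.5% in the other groups. Markers of striatum, a neighbouring region, summed to 220 to 402 FPKM in 12 libraries, but to 1379 in HF 8 and to 757, 817 and 1039 in HF_PBS 2, 3 and 4. Summed oligodendrocyte markers reached 12720 and 13716 in HF_PBS 3 and 4, against 2385 to 7214 elsewhere. The 12 neuron markers, all above 0 in every library, summed to 5983 to 6975 in chow, 3972 to 6575 in HF, 2456 to 5835 in HF_PBS and 4076 to 6347 in HF_5AzaD. The 9 microglia markers, also all above 0, summed to 148 to 159 in chow, 167 to 221 in HF, 148 to 340 in HF_PBS and 172 to 310 in HF_5AzaD. Fewer cells of a type and less RNA per cell cannot be told apart in such tissue, and the part of these differences in the results was not tested beyond the fits without HF 8, HF_PBS 3 and HF_PBS 4 given below. Those fits keep HF_PBS 2, at 757 FPKM, so they do not leave out every library with high striatal markers. The groups are compared in 6 pairs that share samples, so their values are given side by side.

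Across the 9 tested genes, 0 passed limma's test (adjusted p under 0.05 over all loci) in HF against chow, where 0% of the 14923 loci passed and 1029 had an unadjusted p under 0.05. Likewise 0 passed in HF_5AzaD against HF_PBS, where 0% of loci passed and 1108 had an unadjusted p under 0.05. The unadjusted limma p was under 0.05 for 1 member in the first pair (Ldhb) and for 0 in the second. In HF_PBS against HF, 1 member rose and 1 fell, with 23.9% of all loci passing. In HF_PBS against chow 2 rose and 2 fell, with 28.2% of all loci passing, and in HF_5AzaD against chow 2 rose and 2 fell, with 16.3%. In HF_5AzaD against HF, 1 rose and 14.3% of all loci passed. The median difference of the 9 genes on the log2(FPKM + 0.5) scale was -0.04 in HF against chow, where the median of all loci was -0.01. It was 0.23 in HF_PBS against HF, 0.18 in HF_PBS against chow, 0.24 in HF_5AzaD against chow and 0.19 in HF_5AzaD against HF, each with a median of all loci of 0.00 to 0.02. In HF_5AzaD against HF_PBS it was -0.03, with 0.01 for all loci. The libraries of HF and chow did not overlap for 3 of the 9 genes and for 7% of all loci. These values were 2 and 21.3% in HF_PBS against HF, 3 and 33.4% in HF_PBS against chow, and 5 and 27.2% in HF_5AzaD against chow. They were 0 and 17.8% in HF_5AzaD against HF and 0 and 2.4% in HF_5AzaD against HF_PBS. These shares apply wherever a lack of overlap is stated below.

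**Figure D2:**
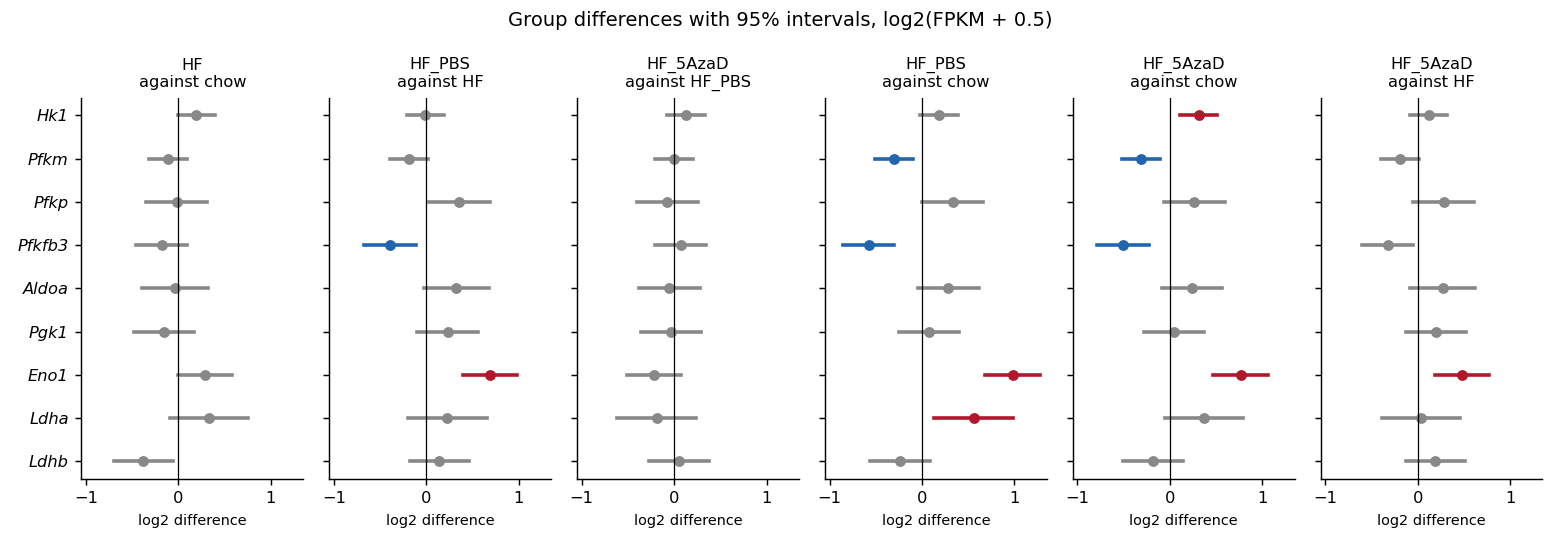
Difference between group means on the log2(FPKM + 0.5) scale (x axis) with 95% intervals from limma for the 9 tested genes (rows) in the 6 pairs of groups (panels). Red marks genes that passed as higher in the first-named group and blue those that passed as lower; Eno1 passed in 4 panels and Pfkfb3 in 3.

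Hk1, the main brain hexokinase, which commits glucose to the cell by phosphorylating it, was lowest in chow. Its FPKM was 144, 145, 144 and 156 in chow and 196, 167, 166 and 149 in HF. It was 176, 169, 149 and 179 in HF_PBS and 185, 195, 166 and 189 in HF_5AzaD. Every HF_5AzaD library was above every chow library, while HF 8 and HF_PBS 3 lay within the chow range. Of the 4 libraries with high striatal markers these 2 were the lowest for Hk1 in their groups, and HF_PBS 2 and HF_PBS 4 lay above the chow range. Hk1 rose in HF_5AzaD against chow, from 147 ± 5.88 to 184 ± 12.5 FPKM (SD, n = 4 each), a log2 difference of 0.31 (SE 0.09, limma adjusted p = 0.0383). That call was lost when any of the 4 chow libraries, HF_5AzaD 3, HF_5AzaD 5 or HF_5AzaD 7 was left out. Over all 8 fits without 1 library, the differences were 0.28 to 0.36 and the limma adjusted p 0.0256 to 0.112. The log2 difference was 0.20 in HF and 0.18 in HF_PBS against chow, with limma adjusted p of 0.715 and 0.148.

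Pfkm and Pfkp encode the muscle and platelet types of phosphofructokinase, both of them abundant in brain. Pfkm FPKM was 224, 217, 216 and 218 in chow and 196, 214, 207 and 193 in HF. It was 204, 178, 171 and 160 in HF_PBS and 204, 173, 182 and 153 in HF_5AzaD. Every library of the other 3 groups lay below every chow library. Of all loci, 7% did not overlap in HF against chow, 33.4% in HF_PBS against chow and 27.2% in HF_5AzaD against chow. Pfkm fell by 0.30 on the log2 scale in HF_PBS against chow (SE 0.10, limma adjusted p = 0.0313) and by 0.31 in HF_5AzaD against chow (SE 0.10, adjusted p = 0.0442). In HF against chow it differed by -0.11 (adjusted p = 0.818). Both calls rest on most libraries at once: 2 of 8 fits without 1 library kept the first and 2 of 8 kept the second. Leaving out any chow library ended both calls, as did leaving out HF_PBS 3 or 4 for the first and HF_5AzaD 5 or 7 for the second. Over all 8 fits the differences ranged from -0.37 to -0.25 for the first and from -0.37 to -0.24 for the second. The limma adjusted p went up to 0.102 and 0.153. Without HF 8, HF_PBS 3 and HF_PBS 4 the first was -0.20 (adjusted p = 0.318). The first call was also lost with equal medians (limma adjusted p = 0.0634) and with the title numbers as a block (0.105). The second was lost with no filter on low values (0.0536), equal medians (0.0623) and only the 2 groups compared (0.0625).

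Pfkp FPKM was 185, 195, 182 and 191 in chow and 234, 169, 182 and 165 in HF. It was 284, 223, 171 and 293 in HF_PBS and 251, 207, 228 and 219 in HF_5AzaD. All HF_5AzaD libraries lay above all chow libraries, and HF_PBS held both the highest library and one below the chow range. No difference of Pfkp passed: it was 0.35 on the log2 scale in HF_PBS against HF (limma adjusted p = 0.106), 0.33 in HF_PBS against chow (0.113), 0.26 in HF_5AzaD against chow (0.234) and 0.28 in HF_5AzaD against HF (0.219). In HF against chow it was -0.02, with a 95% interval of -0.35 to 0.31.

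The ratio of Pfkp to Pfkm, taken within a library and so free of its scaling, was 0.823 to 0.896 in chow, 0.791 to 1.19 in HF, 0.999 to 1.84 in HF_PBS and 1.20 to 1.44 in HF_5AzaD. Only HF 5 of the uninjected libraries was above 1. On the log2 scale the ratio was higher by 0.64 in HF_PBS against chow, by 0.57 in HF_5AzaD against chow and by 0.48 in HF_5AzaD against HF, with no overlap in these 3 pairs. Each had p = 0.0286 in a two-sided exact permutation test, the smallest that 4 against 4 can give. The exact permutation adjusted p was 0.0571 over the 18 ratio tests, so none of the 3 passed. With p at its floor, the adjusted p depends on how many of the 18 tests reach that floor. Not passing is therefore no sign that the ratios were equal.

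Pfkfb3 encodes the bifunctional enzyme that makes fructose 2,6-bisphosphate, the strongest activator of phosphofructokinase; the kinase is kept low in neurons and is more abundant in astrocytes. Its FPKM was 13.6, 13.6, 13.9 and 15.0 in chow and 13.3, 13.5, 11.2 and 11.2 in HF. It was 9.87, 10.9, 8.66 and 7.69 in HF_PBS and 9.46, 8.06, 12.6 and 9.17 in HF_5AzaD. All HF_PBS libraries lay below all chow and HF libraries, and of the HF_5AzaD libraries only number 6 lay within the HF range. Pfkfb3 fell in HF_PBS against chow, from 14.0 ± 0.66 to 9.29 ± 1.41 FPKM (SD, n = 4 each), by 0.58 on the log2 scale (SE 0.13, limma adjusted p = 0.00738). It fell by 0.39 in HF_PBS against HF (SE 0.13, adjusted p = 0.0410) and by 0.51 in HF_5AzaD against chow (SE 0.13, adjusted p = 0.0235). In HF_5AzaD against HF it differed by -0.32 (limma adjusted p = 0.102).

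All 8 fits without 1 library kept the call of Pfkfb3 in HF_PBS against chow, with differences of -0.66 to -0.50. The call in HF_PBS against HF was lost without HF 5, HF 6, HF_PBS 3 or HF_PBS 4 (differences of -0.47 to -0.31 over the 8 fits). It was also lost in 6 of 12 other settings: with no filter, quantile normalization, equal medians, library weights, only the 2 groups compared, and without HF 8, HF_PBS 3 and HF_PBS 4 (-0.27, limma adjusted p = 0.335). That in HF_5AzaD against chow was lost without chow 2, 3 or 4 or HF_5AzaD 5 or 7 (-0.63 to -0.42 over the 8 fits). Without HF 8, HF_PBS 3 and HF_PBS 4 together, Pfkfb3 in HF_PBS against chow was -0.41 with a limma adjusted p of 0.136, where 2 HF_PBS libraries are left. Astrocyte markers summed to 1531 to 2154 FPKM in chow, 1660 to 2697 in HF, 2016 to 2981 in HF_PBS and 2133 to 2226 in HF_5AzaD. Values with a status other than OK are left out of these sums. In chow 1 only 8 of the 9 markers entered, so its 1531 is incomplete. The other chow libraries summed to 1822 to 2154. The part of these markers in the result was not tested.

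Aldoa, the aldolase of muscle and brain, was the most abundant member. Its FPKM was 622, 588, 582 and 602 in chow and 673, 562 and 525 in HF 5, 7 and 8, with the HF 6 value of 610 marked FAIL in the table and left out of the fit. It was 892, 653, 593 and 824 in HF_PBS and 877, 600, 667 and 703 in HF_5AzaD. The 3 highest libraries were HF_PBS 1, HF_5AzaD 3 and HF_PBS 4, and the groups overlapped in every pair. The largest difference, 0.32 on the log2 scale in HF_PBS against HF, had a limma adjusted p of 0.163 (95% interval -0.03 to 0.68, with 3 HF libraries).

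Pgk1, phosphoglycerate kinase, makes the first ATP of the pathway. Its FPKM was 160, 162, 153 and 152 in chow and 157, 138, 144 and 127 in HF. It was 211, 145, 133 and 184 in HF_PBS and 211, 130, 151 and 166 in HF_5AzaD. The injected groups spread on both sides of chow, from 130 to 211 FPKM, and the CV of Pgk1 was 21.3% in HF_PBS and 20.7% in HF_5AzaD against 3.10% in chow. No difference passed, the lowest limma adjusted p being 0.283 in HF_PBS against HF (0.23 on the log2 scale, and 0.11 without HF_PBS 1).

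Eno1, the ubiquitous enolase, changed most. Its FPKM was 62.3, 66.6, 61.8 and 66.8 in chow and 92.7, 70.7, 82.4 and 70.9 in HF. It was 119, 127, 116 and 150 in HF_PBS and 134, 94.2, 89.2 and 129 in HF_5AzaD. The 4 HF libraries were all above chow, and the 4 HF_PBS libraries were all above HF. The HF_5AzaD libraries fell into a higher pair, numbers 3 and 7, and a lower pair, numbers 5 and 6, of which number 6 lay below HF 5.

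Eno1 rose 1.99-fold in HF_PBS against chow, from 64.4 ± 2.69 to 128 ± 15.6 FPKM (SD, n = 4 each), a log2 difference of 0.98 (SE 0.14, limma adjusted p = 0.00207). It rose by 0.69 in HF_PBS against HF (SE 0.14, adjusted p = 0.00474), by 0.77 in HF_5AzaD against chow (adjusted p = 0.00863) and by 0.48 in HF_5AzaD against HF (adjusted p = 0.0348). In HF against chow it was higher by 0.29 without passing (adjusted p = 0.715), although the groups did not overlap, as in 7% of all loci. In HF_5AzaD against HF_PBS it differed by -0.22 (95% interval -0.51 to 0.08, limma adjusted p = 0.789).

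The first 3 of these calls of Eno1 stood in all 8 fits without 1 library, with differences of 0.90 to 1.02, 0.61 to 0.77 and 0.67 to 0.86. That in HF_5AzaD against HF stood in 4 of 8 and was lost without HF 6, HF 8, HF_5AzaD 3 or HF_5AzaD 7. Its differences were 0.38 to 0.58 over the 8 fits. Without HF 8, HF_PBS 3 and HF_PBS 4, Eno1 was higher by 0.93 in HF_PBS against chow (limma adjusted p = 0.0509), by 0.59 in HF_PBS against HF (0.0983) and by 0.43 in HF_5AzaD against HF (0.0742). In those fits 4 loci of all tested passed in the first pair, 7 in the second and 1905 in the third. HF_PBS 1 and HF_PBS 2 are then left in HF_PBS, and HF_PBS 2 is itself high in striatal markers. Processed copies of Eno1, as of Gapdh, Ldha and Pgk1, exist in mammalian genomes, and how shared fragments were assigned is not stated in those sources.

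Eno2, the neuronal enolase, was listed at low levels beside other neuronal genes, and its values are uncertain. Its FPKM was 1.21, 1.33, 1.14 and 1.60 in chow and 1.15, 0.996, 0.810 and 1.09 in HF. It was 0.828, 1.24, 0.690 and 0.598 in HF_PBS and 0.918, 0.822, 0.731 and 0.412 in HF_5AzaD. Snap25 and Rbfox3, genes of the neuron's synapse and nucleus, averaged 1873 and 127 FPKM in the same libraries. The symbol stands at a second locus with a mean of 0.857 FPKM, and its neighbours Lrrc23, Atn1 and Grcc10 are also entered at 2 loci each, with means of 0.011 to 0.795. Eno2 was not tested for its low mean. All HF_5AzaD libraries lay below all chow libraries at the higher locus, with means of 0.721 ± 0.22 and 1.32 ± 0.20 FPKM (SD, n = 4 each). With no filter on low values its difference in that pair was -0.59 on the log2 scale (limma adjusted p = 0.047), and with the 2 loci summed it was -0.31 (adjusted p = 0.237).

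Ldha encodes the subunit of lactate dehydrogenase best known for making lactate. Its FPKM was 83.1, 87.2, 78.1 and 98.6 in chow and 164, 100, 84.8 and 101 in HF. It was 150, 119, 95.02 and 157 in HF_PBS and 137, 103, 93.3 and 119 in HF_5AzaD. HF 5 was the highest library of all, and HF 7, HF_PBS 3 and HF_5AzaD 6 lay within the chow range. Ldha rose 1.50-fold in HF_PBS against chow, by 0.56 on the log2 scale (SE 0.20, limma adjusted p = 0.0481), with groups that overlapped. That call was lost without any of the 4 chow libraries or without HF_PBS 1, 2 or 4, and stood in 1 of 8 fits (differences 0.46 to 0.70). It was 0.62 with an adjusted p of 0.150 without HF 8, HF_PBS 3 and HF_PBS 4. With no filter on low values it was 0.56 with a limma adjusted p of 0.0685. The other 5 pairs did not pass, the next largest being 0.37 in HF_5AzaD against chow (limma adjusted p = 0.195).

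Ldhb encodes the subunit that favours lactate oxidation and is known for its neuronal expression. Its FPKM was 638, 639, 661 and 526 in chow and 409, 462, 566 and 464 in HF. It was 615, 472, 476 and 534 in HF_PBS and 670, 418, 578 and 523 in HF_5AzaD. The HF group overlapped chow only through HF 7 and chow 4. Ldhb was lower in HF than in chow by -0.38 on the log2 scale, with an unadjusted limma p of 0.0248 and an adjusted p of 0.695, and so did not pass. Its other differences lay between -0.24 and 0.19.

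The Ldha to Ldhb ratio was 0.118 to 0.188 in chow, 0.150 to 0.402 in HF, 0.200 to 0.295 in HF_PBS and 0.161 to 0.248 in HF_5AzaD. All HF_PBS libraries lay above all chow libraries, and HF 5 was the highest of all libraries. The ratio was 0.79 higher on the log2 scale in HF_PBS than in chow (two-sided exact permutation p = 0.0286, adjusted p = 0.0571) and 0.71 higher in HF than in chow (exact permutation p = 0.0571, adjusted p = 0.0857). The latter was 0.45 without HF 5. The Eno2 to Eno1 ratio was lower by -1.44 in HF_PBS against chow, with the uncertainty of Eno2 given above and the same smallest exact permutation p.

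**Figure D3:**
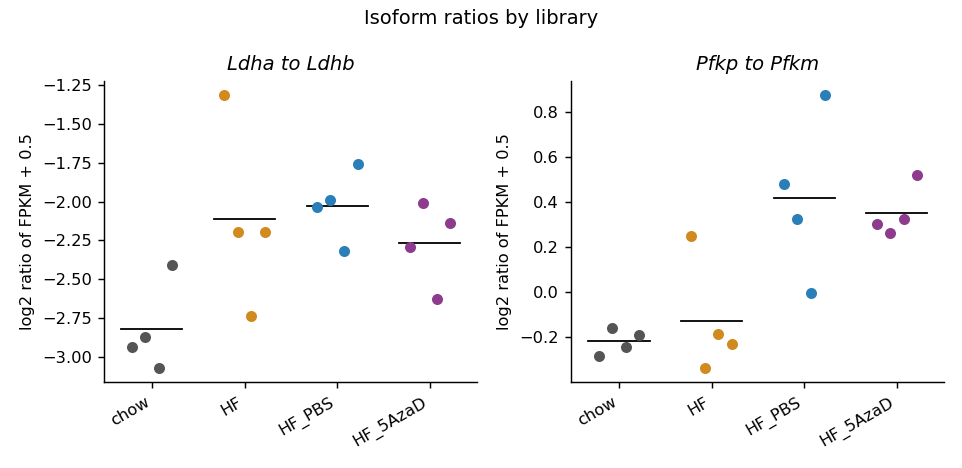
log2 ratio of FPKM + 0.5 (y axis, each panel with its own scale) of Ldha to Ldhb and of Pfkp to Pfkm in each library of the 4 groups (x axis); points are libraries and lines group means. The Pfkp to Pfkm points of HF_5AzaD all lie above those of chow and HF, and HF 5 stands highest for Ldha to Ldhb.

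Within groups, 4 members varied together between libraries. After removal of group means, Pearson's r on the log2 scale was 0.973 between Aldoa and Pgk1 (15 libraries), 0.882 between Pfkp and Aldoa (15) and 0.832 between Pfkp and Ldha (16). It was 0.811 between Pfkp and Pgk1 (16), 0.804 between Aldoa and Ldha (15) and 0.693 between Pgk1 and Ldha (16). HF 5, HF_PBS 1, HF_PBS 4 and HF_5AzaD 3 were above their group mean in all 4 genes, and HF 8, HF_PBS 2, HF_PBS 3 and HF_5AzaD 5 were below it. Within groups Hk1 had r = 0.794 with Ldha, 0.714 with Pfkp, 0.564 with Aldoa and 0.450 with Pgk1, so the 4 genes are not sharply set apart. Pfkfb3 and Eno1 had r = -0.81 over the 16 libraries and -0.26 within groups. These values share libraries and their scaling and are descriptions.

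**Figure D4:**
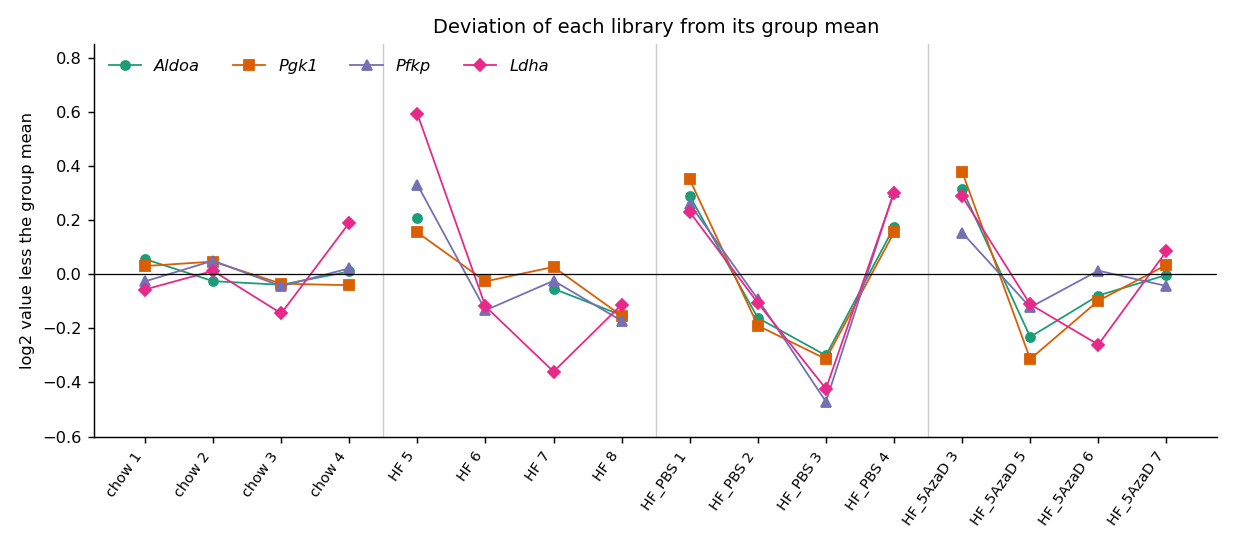
log2(FPKM + 0.5) of Aldoa, Pgk1, Pfkp and Ldha in each library less the mean of its group (y axis), by library (x axis); grey lines divide the 4 groups. The 4 genes lie together in most libraries outside chow, from about the lowest in HF_PBS 3 to high values in HF_PBS 1, HF_PBS 4 and HF_5AzaD 3.

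The loci whose log2 values were most like those of 4 members over the 16 libraries, among 10570 loci with a symbol, are given as a description. For Eno1 they were Uba1 (r = 0.956), Mta1 (0.948) and Pomt1 (0.936), and for Pfkfb3 they included Stat6 (0.941) and Akap10 (0.937). For Ldha they were B3gat2 (0.933), Syt5 (0.920) and Egln3 (0.910), the last a prolyl hydroxylase of the hypoxia-inducible factor pathway. For Eno2, at its low level, they were Vps4a (0.905), Ppm1k (0.884) and Brms1l (0.878).

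Other enzymes of glycolysis and of reactions beside it were read from a list of 20 names. Of these, 19 had a locus and 11 were tested. In HF_PBS against chow and against HF, 2 rose and 1 fell, with list median log2 differences of 0.13 and 0.05. These 3 of 11 are close to the share of all loci that passed in these pairs, 28.2% and 23.9%. In HF_5AzaD against chow and against HF, 1 rose and 0 fell by limma's test, with 2 and 3 higher and 0 lower at an unadjusted p under 0.05. Of all loci 7.15% and 6.58% rose by limma's test in these pairs, which is close to 1 of 11. Gapdh, which oxidises glyceraldehyde 3-phosphate, averaged 52.1 ± 3.9 FPKM in chow, 51.1 ± 9.1 in HF, 103 ± 18 in HF_PBS and 96.4 ± 17 in HF_5AzaD (SD, n = 4 each). It rose by 0.97 in HF_PBS against chow and by 1.01 against HF on the log2 scale (limma adjusted p = 0.00271 and 0.00212), and by 0.87 and 0.91 in HF_5AzaD against chow and HF (0.00805 and 0.00688). Bpgm, which makes 2,3-bisphosphoglycerate, rose by 0.32 in HF_PBS against chow (limma adjusted p = 0.0179) and by 0.29 against HF. Ldhd, the D-lactate dehydrogenase, fell by 0.42 in both pairs (limma adjusted p = 0.00945 and 0.0107). Pfkfb2, the 1 tested paralogue of Pfkfb3 among the regulators, fell in all 4 pairs of an injected against an uninjected group, from 9.02 ± 0.66 FPKM in chow to 5.10 ± 0.80 in HF_PBS and 5.72 ± 0.36 in HF_5AzaD (limma adjusted p = 0.00447 to 0.0355).

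Around glycolysis, 4 of 7 tested genes of the pentose phosphate pathway rose and 0 fell in HF_PBS against chow and against HF, with a list median log2 difference of 0.32 and 0.28 where the median of all loci was 0.01. Of all loci 12.4% and 10.6% rose in these pairs, and without HF 8, HF_PBS 3 and HF_PBS 4 only 4 and 7 loci of all tested passed in them. Rpe, Taldo1 and Pgls were among those 4, and Taldo1 (transaldolase) went from 70.2 ± 2.9 FPKM in chow and 65.9 ± 3.9 in HF to 91.7 ± 11 in HF_PBS (SD, n = 4 each). In HF_5AzaD against chow and against HF, 2 rose and 0 fell by limma's test, with 5 and 4 higher and 1 and 0 lower at an unadjusted p under 0.05. Of all loci 7.15% and 6.58% rose by limma's test in these pairs. The list for the tricarboxylic acid cycle also holds the cytosolic forms Idh1 and Aco1. Of its 18 tested genes 1 (Idh1) rose and 4 fell in HF_PBS against chow, and 0 rose and 3 fell in HF_5AzaD against chow. These shares are close to the 28.2% and 16.3% of all loci that passed in these pairs, and nothing is read from them about the list. Ogdh, a subunit of the 2-oxoglutarate dehydrogenase complex, averaged 64.9 ± 4.1 and 67.8 ± 11 FPKM in chow and HF and 37.5 ± 7.6 and 36.5 ± 7.8 in HF_PBS and HF_5AzaD (limma adjusted p = 0.0049 to 0.0117 in the 4 injected pairs). Sdha, a subunit of succinate dehydrogenase, fell as well in these 4 pairs, and Idh1, the cytosolic isocitrate dehydrogenase, rose in HF_PBS against chow and HF.

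Of 13 tested genes for the entry of pyruvate into mitochondria, 3 rose and 1 fell in HF_PBS against HF, where 10.6% of all loci rose and 13.3% fell. In HF_PBS against chow 0 rose by limma's test, 0 were higher at an unadjusted p under 0.05, and 1 fell, with a list median of -0.12. Of all loci 12.4% rose and 15.8% fell in that pair. The carrier subunits Mpc1 (0.68, limma adjusted p = 0.0122) and Mpc2 (0.40, 0.0269) and the kinase Pdk4 (1.36, 0.0219) rose in HF_PBS against HF, and the kinase Pdk1 fell by 0.31 (0.0395). Against chow Mpc1, Mpc2 and Pdk4 differed by 0.21, 0.20 and 0.46 (limma adjusted p = 0.348, 0.224 and 0.369). Of 13 tested glycogen genes 3 rose and 0 fell in HF_PBS against HF (4 higher and 1 lower at an unadjusted limma p under 0.05). In HF_PBS against chow 2 rose and 1 fell, and the list medians were 0.14 and -0.03. These shares are close to or under the 23.9% and 28.2% of all loci that passed in these pairs, and nothing is read from them about the list. Gyg1, the primer of glycogen, rose by 0.51 in HF_PBS against HF (limma adjusted p = 0.0172). Pygb, the brain glycogen phosphorylase, fell by 0.57 in HF_5AzaD against chow (0.0166). Of 10 tested glucose and monocarboxylate transport genes only Slc16a7, a monocarboxylate carrier, passed. It fell by 0.82 in HF_PBS against chow (limma adjusted p = 0.0230), where 28.2% of all loci passed. Of 7 NADH shuttle genes 0 passed in any pair, with at most 1 gene at an unadjusted limma p under 0.05. Of all loci 14.3% to 28.2% passed in the 4 pairs of an injected against an uninjected group. With 7 genes, nothing is read from this about the list. Of 16 tested genes of the hypoxia-inducible factor pathway 0 rose in any pair by limma's test. In HF_PBS against HF 5 of them were higher at an unadjusted limma p under 0.05. Of all loci 6.58% to 12.4% rose in the 4 injected pairs. With 16 genes, nothing is read from the 0 about the list. Hif1an, which hydroxylates and restrains the factor, fell in all 4 injected pairs (7.37 ± 0.71 FPKM in chow, 2.87 ± 0.43 in HF_PBS). Between the 2 injected groups and between the 2 uninjected ones 0% of all loci passed limma's test. That no gene of these lists passed there is therefore not particular to the lists. Each list had 0 to 3 genes at an unadjusted limma p under 0.05 in these pairs.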

How the data were processed

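RNA sequencing of frontal cortex was described in 16 libraries, with poly-A selected RNA per the labels' protocols. The authors deposited FPKM values per merged locus and library, each with a status. Per the submitters' processing notes, the tools were Cufflinks, Cuffdiff, Bowtie, Bowtie2, TopHat and TopHat2 and the build was rn5, with no version or role. Strand was not stated, so reads of overlapping or antisense transcripts may be part of a value. No depth per library is recorded, and FPKM keep only relative depth.

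The members and lists were chosen with earlier results of these data known. Values with a status other than OK (161 loci) were set to missing, and a locus needed at least 3 OK values in each group and a mean of at least 1 FPKM; 14923 of 28168 loci were tested, 99 of them with a missing value. The linear models were fitted by limma 3.58.1 (R 4.3.3, with a mean-variance trend) to log2(FPKM + 0.5) of all 16 libraries, with a mean for each group, 12 residual degrees of freedom and 6 pairs of groups; Benjamini-Hochberg adjustment was over the loci tested and the threshold 0.05. A fold on this scale understates the change of low genes. The script was tested on simulated data. Isoform ratios were compared by two-sided exact permutation tests, adjusted over 18. Plots and ratios used Python 3.11.15, numpy 2.4.6, pandas 2.3.3 and matplotlib 3.10.9. All 10 members are named. Of other lists up to 4 genes with the lowest adjusted p are named, with 1 per direction where there is one, and the 3 loci most alike for Eno1, Eno2, Ldha and Pfkfb3. Snap25, Rbfox3, Lrrc23, Atn1, Grcc10 and Tpi1 were added after their values were seen. A few genes that this rule names are not reported here. Promoters came from RefSeq, assembly GRCr8. The design text uses HFD for the diet alone where titles give those letters to PBS animals; groups follow the stated treatment. Alternatives covered the pseudocount, filter, scaling, weights, samples in the fit, locus choice, status and libraries left out. The table held 0 columns of other series.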

Additional observations from a re-analysis of the deposited data

Results flagged for a closer look

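Over 51 sets of 4 libraries of 1 group, each for a member's FPKM or an isoform ratio, 2 held a library far from the other 3 (by Dixon's ratio of gap to range), and chance flags about 1 in 20. Both were chow 4: Hk1 was highest there, at 156 FPKM against 144 to 145 in the other chow libraries, and Ldhb lowest, at 526 against 638 to 661.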

How the results depend on the processing

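The comparisons were recomputed under the alternatives named above, 3 of them chosen after seeing the data (loci with any status other than OK left out, such values kept, and HF 8, HF_PBS 3 and HF_PBS 4 left out together). For the 60 log2 differences of members, these alternatives gave 1105 values. Of these, 60 lost the call, 9 gained, 37 changed sign, 3 moved and 996 were counted as unchanged. For tested members unchanged means that direction and side of the threshold were kept. For Eno2, not tested in the main fit, sign was not looked at, so the 37 leave it out. With its 2 loci summed, Eno2 in HF_5AzaD against HF_PBS was 0.0022 in place of -0.13. Without HF 8, HF_PBS 3 and HF_PBS 4, Eno2 in HF_PBS against HF was 0.041 in place of -0.19. Only a difference that had passed could lose a call, and most had not passed. The 60 losses are therefore not a share of the 1105, and the calls were less stable than that share. The count of members past limma's test in HF_PBS against HF was 1 in place of 2 with no filter, with equal medians, with library weights and with only the 2 groups compared, and 0 without those 3 libraries. With quantile normalization it stayed at 2, with Pfkm in place of Pfkfb3. In HF_PBS against chow it was 0 in place of 4 without them. In HF_5AzaD against HF it was 2 in place of 1 with quantile normalization, and 0 with library weights, with only the 2 groups, and without the 3 libraries. Leaving out 1 library gave 1 to 2 members in HF_PBS against HF, 2 to 4 in HF_PBS against chow, 1 to 4 in HF_5AzaD against chow and 0 to 2 in HF_5AzaD against HF. The cause was not tested, except that these fits hold fewer samples.

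Same numbers in titles gave no sign of pairing: r between same-numbered libraries after removing group means was -0.164 to 0.0236 for chow and HF_PBS and -0.107 to 0.0641 for HF and HF_5AzaD. With the replicate block, 3 members passed in HF_PBS against chow and 0 in HF_5AzaD against HF, where Ldha was -0.0956.

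Other values that changed sign were differences that had not passed. In HF against chow, Pfkp was 0.0529 with quantile normalization, 0.00716 with library weights and 0.0376 without the 3 libraries, and Aldoa was 0.0694, 0.00353 and 0.0386. Hk1 in HF_PBS against HF was 0.0400 with equal medians. In HF_5AzaD against HF_PBS, Pfkm was 0.00273 with library weights and Pfkfb3 -0.0942 without the 3 libraries. Ldha in HF_5AzaD against HF was -0.0441 with quantile normalization and -0.0341 with library weights. Without 1 library, ranges crossed 0 in HF against chow for Pfkp (-0.130 to 0.0376), Aldoa (-0.140 to 0.0386) and the Pfkp to Pfkm ratio (-0.0325 to 0.163). They did so in HF_PBS against HF for Hk1 (-0.0697 to 0.0617) and the Ldha to Ldhb ratio (-0.123 to 0.350), and for Pgk1 against chow in HF_PBS (-0.0385 to 0.183) and HF_5AzaD (-0.0800 to 0.151). In HF_5AzaD against HF they did so for Ldha (-0.0823 to 0.235) and the Ldha to Ldhb ratio (-0.363 to 0.111). In HF_5AzaD against HF_PBS they did so for Pfkm (-0.0731 to 0.0658), Pfkp (-0.229 to 0.0298), Pfkfb3 (-0.0510 to 0.155), Aldoa (-0.155 to 0.0457), Pgk1 (-0.158 to 0.0847), Ldhb (-0.0540 to 0.173) and the ratios Eno2 to Eno1 (-0.0825 to 0.296) and Pfkp to Pfkm (-0.207 to 0.0851).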

Other observations

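Tpi1, triosephosphate isomerase, was listed at 7.23 FPKM in HF 5 and 6.47 in HF 6 and at 0.031 to 0.274 in the other 14 libraries, so it stayed below the mean of 1 FPKM and was not tested. It stands next in the table's locus numbering to the lower Eno2 locus and its neighbours Grcc10, Atn1 and Lrrc23.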
